A study of Mus musculus with 93 samples.

Results

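Ttn, Actn2, Nebl, Ldb3, Myom1, Csrp3, Unc45b, Cryab, Smyd1 and Fbxo32 are 10 genes of the sarcomere scaffold and of its assembly and turnover, and they are 10 of the 24514 gene symbols counted in this series. They were chosen by their measured levels, in CPM (counts scaled by library size), across all 4 groups of libraries. Their levels and differences are therefore given as a description, with no p-value. Each library was made from 10 cells sorted into 1 well of a plate, and reads were counted per gene. Embryo cells came from Hcn4-GFP; Tbx1-Cre; Ai9 mice, staged at E7.75 in the sorting protocol and at E8.5 in the sample titles. Spheroid cells came from embryonic stem cells with the same alleles, derived from blastocysts, at day 5.5 of differentiation. GFP+ cells express the Hcn4-GFP reporter, which marks the first heart field. RFP+ cells carry the Ai9 label that Tbx1-Cre leaves in a cell and in all of its descendants, and they stand for the second heart field. All 4 groups carry all 3 alleles, so they differ in source and in the reporter sorted for. There were 5 embryo GFP+, 4 embryo RFP+, 38 spheroid GFP+ and 46 spheroid RFP+ libraries. Wells are not tied to embryos or to differentiations, so n counts wells and p-values cover the spread between wells.

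The sarcomere is the contractile unit of striated muscle. Titin spans from the Z-disc, where thin filaments of neighbouring sarcomeres are anchored, to the M-band, where thick filaments are cross-linked. Alpha-actinin 2 (Actn2) cross-links actin at the Z-disc, nebulette (Nebl) binds actin beside it, and the PDZ-LIM protein Ldb3, also called Cypher, binds alpha-actinin. Csrp3, the muscle LIM protein, is another Z-disc component, and Myom1 encodes myomesin, which binds titin and myosin at the M-band. Unc45b is the chaperone that folds striated muscle myosin together with Hsp90. Smyd1 is a methyltransferase of heart and skeletal muscle needed for sarcomere assembly, Cryab is a small heat shock protein that binds titin and desmin, and Fbxo32 (atrogin-1) is the substrate-binding subunit of a ubiquitin ligase that degrades muscle proteins. In the mouse, the first sarcomeres form in the cardiac crescent and early heart tube, where the first heart field differentiates before the second.

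In GENCODE M21 on GRCm38, which is the assembly of mm10, Ttn lies on the minus strand of chromosome 2 at 76703980 to 76982547 and has 116.825 kb of exon sequence in 345 blocks. Nebl is on the same chromosome at 17343909 to 17731464. The others lie on chromosomes 13 (Actn2), 14 (Ldb3), 17 (Myom1), 7 (Csrp3), 11 (Unc45b), 9 (Cryab), 6 (Smyd1) and 15 (Fbxo32), so only Ttn and Nebl share a chromosome. Ttn exons are overlapped on the other strand by the antisense gene Gm13938, Unc45b exons by Unc45bos and Slfn5os, and Fbxo32 exons by Gm15943. The libraries do not mark strand, so such reads cannot be told apart. RefSeq upstream sequences of GRCm38.p6 were at hand for 8 of the members, with 13 annotated starts between them. Windows of 250 bases before each start were searched on both strands, so TATAAA can lie inside a match of the longer motifs. A MEF2 site was found in 1 of the 13 windows (Ttn) and in 2.92% of all 32851 windows of that length. A CArG box, the serum response factor sequence, was found in 4 of the 13 windows and in 1.47% of all windows. These belong to 3 members (Nebl, Ldb3 and Myom1), and the 2 windows of Ldb3 overlap and hold the same box. The E-box CANNTG was found in 8 of the 13 windows (6 members) and in 66.2% of all windows. AGATAA was found in 3 of the 13 windows (2 members) and in 9.99% of all windows. CATTCC was found in 1 of the 13 and in 12.6%, and TATAAA in 1 (Smyd1) and in 12.4%.  The windows of Ttn, Ldb3 and Myom1 are shown because they hold the rarer matches, as does 1 of the 4 windows of Nebl. Capitals mark the MEF2 site of Ttn (minus strand, chr2:76982548-76982797) and the CArG boxes of Ldb3 (minus strand, chr14:34588682-34588931) and Myom1 (plus strand, chr17:71019307-71019556, a RefSeq start inside the longer GENCODE gene), each read 5′ to 3′ towards the start. A match describes letters and not binding.

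Ttn: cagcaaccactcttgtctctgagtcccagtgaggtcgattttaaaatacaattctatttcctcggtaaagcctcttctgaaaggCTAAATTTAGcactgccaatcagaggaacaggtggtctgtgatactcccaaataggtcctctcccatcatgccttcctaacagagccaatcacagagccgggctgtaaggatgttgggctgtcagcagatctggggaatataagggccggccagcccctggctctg

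Ldb3: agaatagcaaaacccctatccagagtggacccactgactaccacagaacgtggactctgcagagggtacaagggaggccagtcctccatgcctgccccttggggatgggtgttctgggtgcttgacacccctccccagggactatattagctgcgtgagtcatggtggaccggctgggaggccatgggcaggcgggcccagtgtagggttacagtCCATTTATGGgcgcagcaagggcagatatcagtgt

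Myom1: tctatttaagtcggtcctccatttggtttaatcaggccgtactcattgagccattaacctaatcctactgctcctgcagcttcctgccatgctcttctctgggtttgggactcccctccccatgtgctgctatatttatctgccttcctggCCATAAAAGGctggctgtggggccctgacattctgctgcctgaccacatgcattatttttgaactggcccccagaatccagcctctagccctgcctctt

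The MEF2 letters of Ttn lie 166 to 157 bases before its start. The CArG letters of Ldb3 lie 35 to 26 and those of Myom1 99 to 90 bases before the start. The windows of Actn2, Csrp3, Unc45b and Smyd1 held neither motif, and Cryab and Fbxo32 were not matched.

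Total counts ran from 712732 to 2525460 in embryo and from 6288 to 5658882 in spheroid libraries, and reads carry no molecular identifiers. The library of 6288 counts, spheroid GFP+ well C9, held reads of no member but Fbxo32, and it was kept in the levels and left out of correlations. A count of 0 allows up to 3 counts, which is 2.12 CPM in the median embryo RFP+ library, 1.76 CPM in the median spheroid GFP+ library and 2.07 CPM in the median spheroid RFP+ library, for counting error only. The groups were described with marker lists of cell types, which hold neither Hcn4 nor Tbx1, so the sorted reporters themselves were not checked. All 6 cardiomyocyte markers (Tnnt2, Myh6, Myh7, Myl7, Actc1 and Nkx2-5) had reads in every group, and their summed CPM was 13430 to 38410 in embryo GFP+, 626 to 1433 in embryo RFP+, 0 to 579 in spheroid GFP+ and 8.61 to 102 in spheroid RFP+ libraries. The medians of this sum were 23460, 1018, 10.8 and 32.7 CPM in that order. The skeletal muscle factors Myod1, Myog and Pax7 were at 0 in all embryo libraries, and Acta1 was the only 1 of 5 skeletal muscle markers with reads in embryo GFP+ cells. The 4 smooth muscle markers had reads in every group, with median sums of 5578, 675, 51.8 and 16.5 CPM in the same order of groups. The 4 pluripotency markers summed to 35.1 to 1545 CPM (median 148) in spheroid GFP+ and to 4.22 to 544 CPM (median 23.5) in spheroid RFP+ libraries. Spheroid RFP+ wells lay in plate columns to the left of all spheroid GFP+ wells and most embryo libraries lay in the last column, so group and plate position cannot be told apart. In pools of sorted cells, fewer expressing cells and less RNA per expressing cell cannot be told apart either.

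Ttn was the most abundant member by reads in the embryo. CPM here are scaled by edgeR's TMM factors over all 93 libraries. In the 5 embryo GFP+ wells A12, B12, C12, D12 and E12, Ttn was at 1266, 7584, 2087, 2838 and 3875 CPM, and in the 4 embryo RFP+ wells F12, G11, G12 and H11 at 251, 530, 83.6 and 349 CPM. All GFP+ wells lay above all RFP+ wells, and the highest over the lowest well was 5.99 among GFP+ and 6.34 among RFP+ wells. The log2 fold change of GFP+ over RFP+ cells was 3.58 (standard error 0.58), a 12.0-fold difference.

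Among the Z-disc genes, Actn2 and Csrp3 differed most between the embryo groups and Nebl least. Actn2 was at 130, 1378, 241, 126 and 1262 CPM in GFP+ wells A12 to E12 and at 8.74, 1.41, 0 and 5.73 CPM in RFP+ wells F12, G11, G12 and H11. Wells B12 and E12 stood far above the other GFP+ wells, and even the lowest GFP+ well was above all RFP+ wells. Its log2 fold change, 7.31 (standard error 1.14), was the largest among the members. Csrp3 was at 1149, 1029, 543, 518 and 824 CPM in GFP+ wells and at 29.1, 4.22, 1.69 and 27.2 CPM in RFP+ wells, a log2 fold change of 5.73 (standard error 0.74). Ldb3 was at 160, 519, 162, 118 and 291 CPM against 7.29, 7.03, 0 and 10.0 CPM, a log2 fold change of 5.38 (standard error 0.94). Nebl had the lowest level of the Z-disc genes by mean in GFP+ wells, with 157, 83.1, 123, 137 and 67.4 CPM against 8.01, 8.43, 0 and 5.73 CPM and a log2 fold change of 4.37 (standard error 1.15). RFP+ well G12 held no read of Actn2, Ldb3 or Nebl, which allows up to 2.41 CPM there. Without RFP+ well H11 the log2 fold change of Nebl was 4.36 and no longer passed the threshold applied to all genes, an adjusted p-value of 0.1.

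Myom1, the M-band gene, was the steadiest member among embryo GFP+ wells, at 397, 368, 366, 290 and 360 CPM (coefficient of variation 0.112). In RFP+ wells it was at 21.1, 16.2, 16.0 and 6.45 CPM, and the log2 fold change was 4.61 (standard error 0.48). Myl12a, on the other strand, shares 246 bases with Myom1, and reads there cannot be told apart. The long noncoding RNA gene Gm26561, on the same strand, overlaps 124224 bases of the Myom1 span, exons included.

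The assembly factors showed the same order of groups. Unc45b was at 1186, 1418, 808, 1399 and 1051 CPM in GFP+ wells and 65.6, 58.3, 22.0 and 23.6 CPM in RFP+ wells, a log2 fold change of 4.82 (standard error 0.41). Smyd1 was at 1141, 882, 64.5, 736 and 1525 CPM against 40.1, 33.0, 9.29 and 31.5 CPM (log2 fold change 4.96, standard error 0.76). Well C12 lay 23.7 times below well E12 for Smyd1 and still above the highest RFP+ well. Cryab was at 416, 857, 198, 328 and 798 CPM against 43.7, 19.7, 26.2 and 35.1 CPM (log2 fold change 4.10, standard error 0.52). Cryab shares 1030 bases with Hspb2 on the other strand, so reads there cannot be told apart.

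Fbxo32, the turnover gene, was at 203, 180, 143, 492 and 365 CPM in embryo GFP+ wells and at 9.47, 0.703, 11.8 and 0 CPM in RFP+ wells, a log2 fold change of 5.68 (standard error 1.04). It is annotated with a single transcript of 6976 bases.

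In all, 10 of 10 members passed the low-count filter in the embryo comparison and 10 were called higher in GFP+ cells, where 3.88% of the 8503 genes tested were called in that direction. All 10 had no overlap between the groups, as had 3.6% of the genes tested with GFP+ cells higher. The members were chosen on these values, and nothing is read from these counts. Markers of cardiomyocytes and of smooth muscle moved with them, as given above. Reads were found for 6189 to 8302 genes in embryo GFP+ and for 10263 to 13052 genes in embryo RFP+ libraries. Of 5 endothelial markers 3 were tested, and 1 of them, Emcn, was called, higher in RFP+ cells. Emcn was at 0 in all GFP+ wells and at 34.4 to 50.1 CPM in RFP+ wells (edgeR adjusted p = 0.0153). By mean, Pecam1, Cdh5 and Kdr were also higher in RFP+ wells (4.58, 7.84 and 55.2 CPM against 0, 0 and 6.30). Tek was higher in GFP+ wells (29.8 against 14.7 CPM), with reads in 2 of 5 wells there. The embryonic globins Hbb-bh1 (374 CPM) and Hba-x (391 CPM) had reads in 1 of the 4 RFP+ wells, F12. The part of cell composition and of library complexity in the differences was not tested.

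**Figure D1:**
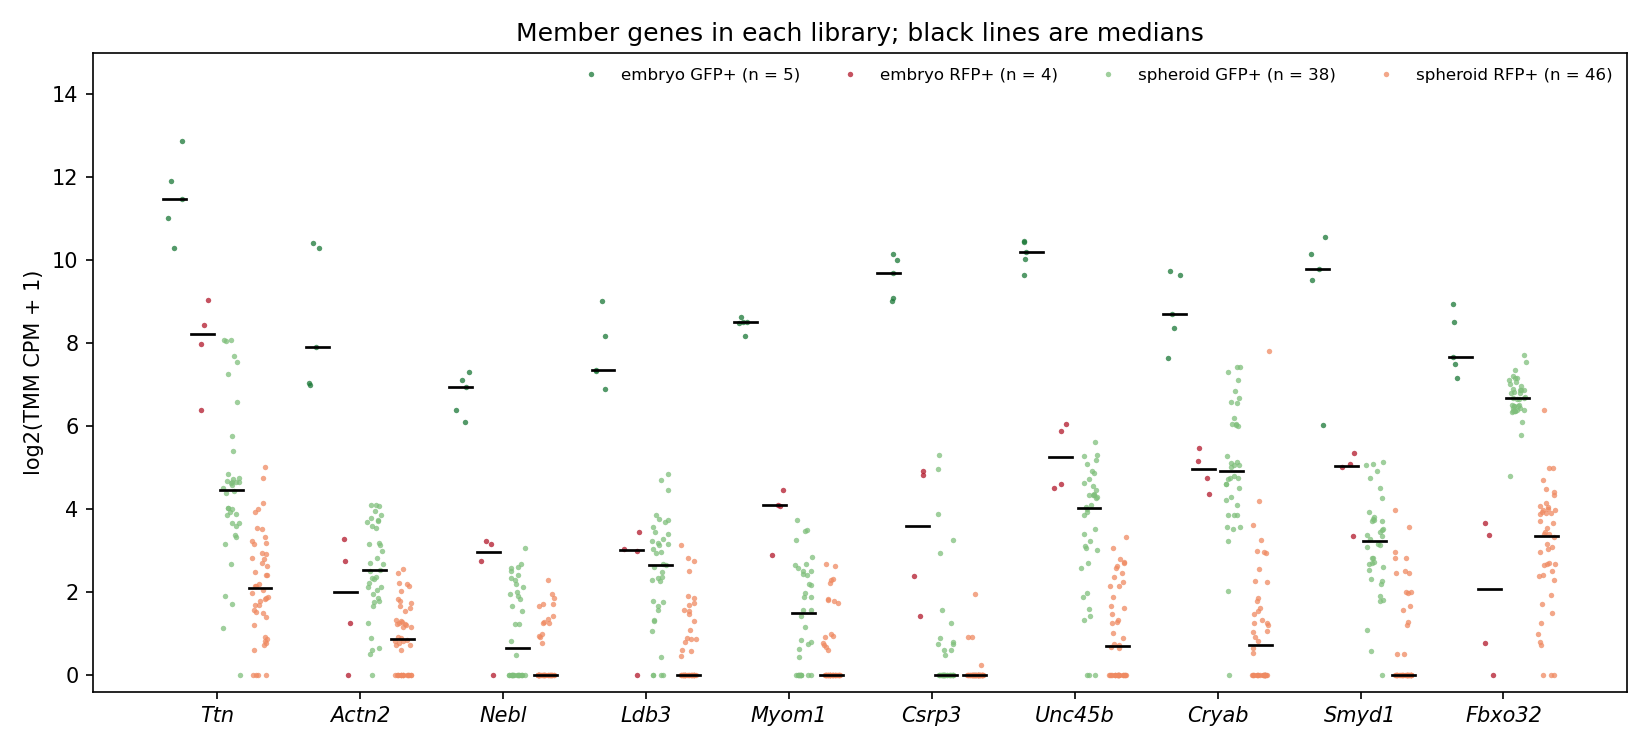
Level of each member gene (log2 of TMM CPM plus 1, vertical axis) in every library of the 4 groups; points are libraries and black lines are group medians. Embryo GFP+ wells lie above embryo RFP+ wells for all 10 genes, and the spheroid groups overlap each other. Fbxo32 of spheroid GFP+ wells (27.1 to 210 CPM) overlaps embryo GFP+ wells and lies above embryo RFP+ wells.

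The order of the 5 embryo GFP+ wells differed between members. B12 was the highest well for Ttn, Actn2, Ldb3, Unc45b and Cryab, A12 for Nebl, Myom1 and Csrp3, E12 for Smyd1 and D12 for Fbxo32. Wells B12 and E12 were the highest pair for Ttn, Actn2, Ldb3 and Cryab and the lowest pair for Nebl. For Actn2, B12 and E12 lay at 2.20 and 2.01 times the mean of the 5 wells, and A12 and D12 at 0.208 and 0.201 times. The coefficient of variation ran from 0.112 for Myom1 and 0.217 for Unc45b to 0.697 for Ttn and 1.01 for Actn2. B12 had the largest total (2525460 counts) and E12 one of the smaller ones (914473 counts).

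**Figure D2:**
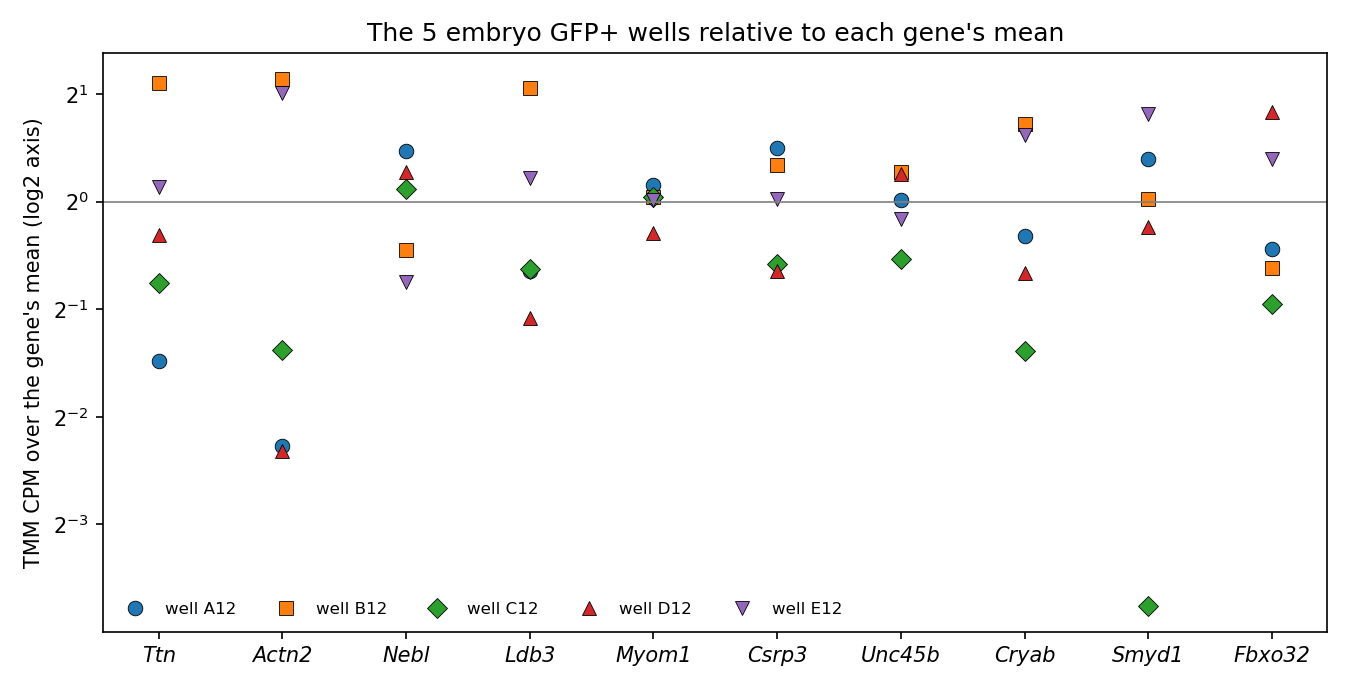
The 5 embryo GFP+ wells as TMM CPM divided by each gene's mean over these wells (log2 vertical axis, 1 marker per well). Myom1 and Unc45b keep close to 1, Actn2 splits into wells B12 and E12 against the other 3, and Smyd1 of well C12 lies at 0.0741 times the mean.

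In the spheroids, the GFP+ and RFP+ wells overlapped for all 10 members. Ttn ran from 0 to 272 CPM in GFP+ wells (median 21.2, n = 38) and from 0 to 31.5 CPM in RFP+ wells (median 3.31, n = 46), and 9 of 38 GFP+ wells lay above the highest RFP+ well. The highest were 272 CPM in B11, 268 in G10, 264 in B9, 207 in E8, 186 in H7 and 152 in C7. The mean, 52.3 ± 79.7 CPM (SD, n = 38), lies well above the median. The log2 fold change was 3.31 (standard error 0.35).

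Fbxo32 was the only member with reads in all 38 spheroid GFP+ wells, which rests on 2 counts in C9, the library of 6288 counts. Ttn, Actn2, Cryab and Smyd1 had reads in the other 37 GFP+ wells, so their minimum of 0 is well C9. Fbxo32 ran from 27.1 to 210 CPM in GFP+ wells (median 102) and from 0 to 83.6 CPM in RFP+ wells (median 9.34). In 29 of 38 GFP+ wells it lay above the highest RFP+ well, H1. The log2 fold change was 3.23 (standard error 0.20). Its coefficient of variation over GFP+ wells, 0.321, was the smallest among the members.

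Cryab ran from 0 to 172 CPM in spheroid GFP+ wells (median 29.4) and from 0 to 225 CPM in RFP+ wells (median 0.667). The value of 225 CPM comes from RFP+ well A2 and the next highest RFP+ well was at 17.4 CPM. With A2 the log2 fold change was 3.13 (standard error 0.43), and without A2, a choice made after its value was seen, it was 4.84. Unc45b ran from 0 to 47.9 CPM in GFP+ wells (median 15.4) and from 0 to 9.17 CPM in RFP+ wells (median 0.641), a log2 fold change of 3.26 (standard error 0.35), with 24 of 38 GFP+ wells above the highest RFP+ well.

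The other 6 members fell under the filter on low counts in the spheroid comparison and have no fitted difference. Smyd1 had reads in 37 of 38 GFP+ and 17 of 46 RFP+ wells, with medians of 8.39 and 0 CPM and a ratio of means of 6.67. Actn2 had reads in 37 GFP+ and 30 RFP+ wells (medians 4.799 and 0.842 CPM, ratio of means 5.35), and Ldb3 in 34 and 20 wells (medians 5.35 and 0 CPM, ratio 6.80). Myom1 had reads in 26 and 16 wells with a ratio of 3.46, and Nebl in 20 and 15 wells with a ratio of 2.95. Csrp3 was the sparsest, with reads in 14 of 38 GFP+ wells and 4 of 46 RFP+ wells, 260 and 7 counts in all. Its highest GFP+ wells were G10 at 39.0, B9 at 30.2, C7 at 13.7, B11 at 8.54 and E8 at 6.71 CPM. Most GFP+ wells with Csrp3 reads held 1 to 3 of them, and a count of 0 in the median GFP+ library allows up to 1.76 CPM.

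Of the 4 members tested in the spheroid comparison, 4 were called higher in GFP+ cells, where 40.1% of the 9940 genes tested were called in that direction. DESeq2, and edgeR without the filter, each called 10. They called 6382 of 16358 and 7708 of 21827 genes in that direction. A share of 0.755% of the genes tested had all GFP+ wells above all RFP+ wells, and 0 of 10 members did; nothing is read from these counts either. The pluripotency markers were also higher in spheroid GFP+ wells (4 of 4 called). The cardiomyocyte marker sum had a median of 10.8 CPM there and 32.7 CPM in RFP+ wells, but reached 579 against 102 CPM. Of the 2 cardiomyocyte markers tested, Myl7 was higher in GFP+ cells (log2 difference 1.44, edgeR adjusted p = 0.00524) and Actc1 was not called (0.27, adjusted p = 0.519). The skeletal muscle marker sum had medians of 39.8 and 1.39 CPM, and its gene Acta1 was higher in GFP+ cells by 4.95 (adjusted p = 2.5e-20). The part of these markers in the differences was not tested.

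Between the sources, the members ordered themselves by how far the spheroid GFP+ cells lay below the embryo GFP+ cells. The log2 fold change of embryo over spheroid GFP+ cells was largest for Csrp3 (7.84, standard error 0.61), followed by Myom1 (6.76, standard error 0.45), Actn2 (6.41, standard error 0.36), Smyd1 (6.11, standard error 0.35), Unc45b (5.99, standard error 0.35), Ttn (5.89, standard error 0.54), Nebl (5.76, standard error 0.54) and Ldb3 (4.97, standard error 0.42). From Myom1 to Nebl, neighbours in this order lie within 1 standard error of each other. Cryab was set apart at 3.20 (standard error 0.43) and Fbxo32 at 1.22 (standard error 0.22). The median of all genes tested in this comparison was at -0.67 with TMM and at -0.22 with DESeq2-type size factors, and the values are to be read against that shift. For Fbxo32, the embryo wells (143 to 492 CPM) overlapped the spheroid wells, and 2 of 5 embryo wells lay above the highest spheroid well. The other 9 members did not overlap. The share of all genes without overlap was not computed for this comparison, so nothing is read from that count. All 10 members were called higher in the embryo, where 19.7% of 11822 genes were called in that direction and 48.3% in the other. Actn2, Nebl, Ldb3, Myom1, Csrp3 and Smyd1 fell under the low-count filter in the spheroid comparison and passed it here, with the embryo wells included. The members were chosen on these values, and nothing is read from this count either.

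In RFP+ cells, 5 members passed the filter and 4 of them were called higher in the embryo, where 20.1% of 11147 genes were called in that direction and 22.5% were higher in spheroids. Ttn had a log2 fold change of 5.78 (standard error 0.36), Unc45b of 4.601 (standard error 0.59) and Smyd1 of 4.09 (standard error 0.70). Cryab had one of 2.28 (standard error 0.97), or 4.01 without spheroid well A2, and it was no longer called without embryo RFP+ well F12 (2.07) or H11 (2.21). Fbxo32 had a log2 fold change of -1.07 (standard error 0.80) and was not called. DESeq2 called 7 members and edgeR without the filter 8, where 2429 of 13334 and 2696 of 20426 genes were called higher in the embryo. Nothing is read from these counts. The comparisons share libraries with those above, and are given side by side.

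By median over the 4 groups, embryo GFP+ cells were highest for every member and embryo RFP+ cells came next for all but Actn2 and Fbxo32. For Cryab the medians of embryo RFP+ and spheroid GFP+ cells lay side by side at 30.6 and 29.4 CPM. For Actn2 they were 3.57 and 4.799 CPM. Fbxo32 was the one member whose spheroid GFP+ wells, from 27.1 CPM, lay wholly above the embryo RFP+ wells, which reached 11.8 CPM. For the other members these groups overlapped.

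**Figure D3:**
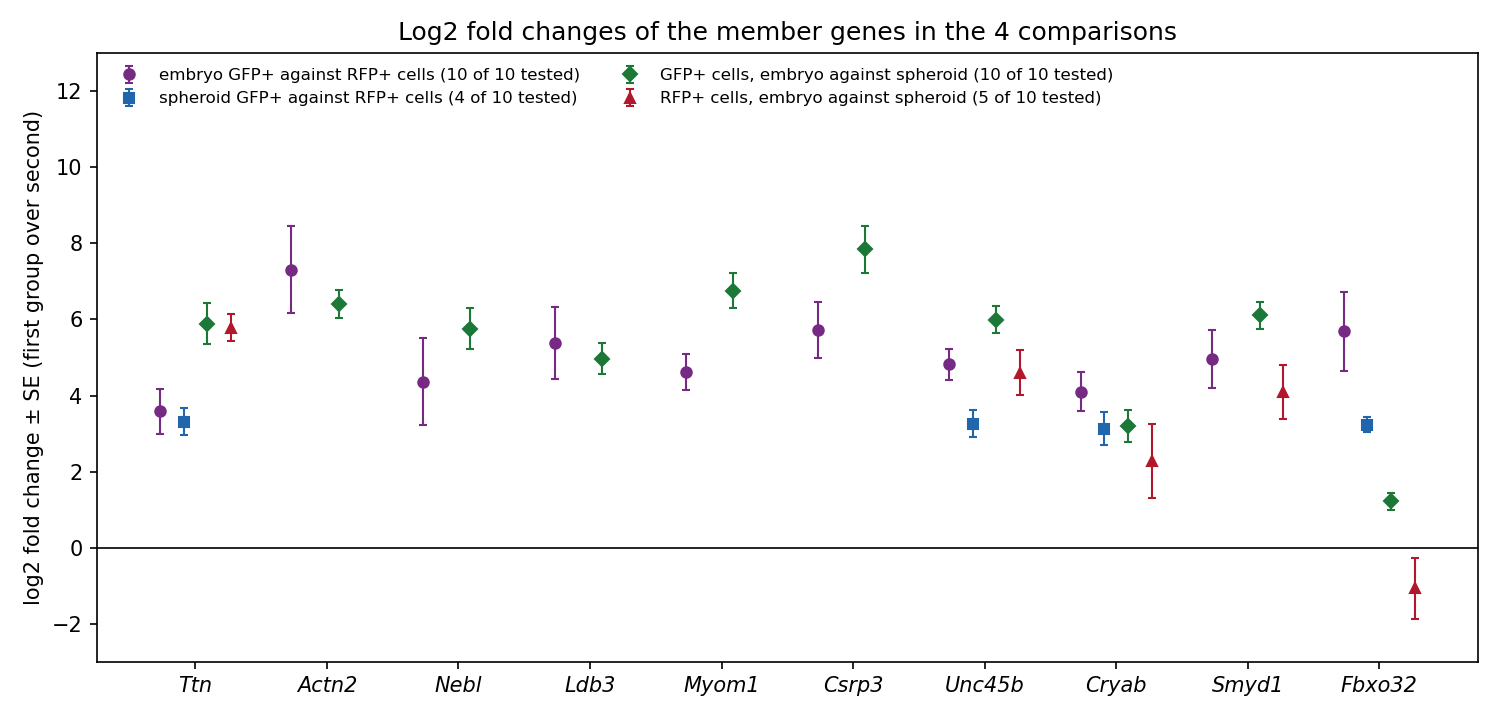
Log2 fold changes with standard errors (vertical axis, first group over second) of the members in the 4 comparisons; members under the low-count filter have no symbol. Fbxo32 has the smallest embryo over spheroid value in GFP+ cells (1.22) and a negative one in RFP+ cells (-1.07), while Ttn has 5.89 and 5.78.

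Levels between genes were compared as CPM per kilobase of exon, which assumes even coverage along each transcript, a property that a gene table does not show. On this scale Ttn, the highest member by reads, ranked ninth. In embryo GFP+ wells the order of medians was Csrp3 (309 CPM per kb), Cryab (281), Unc45b (264), Smyd1 (194), Actn2 (63.4), Myom1 (34.97), Fbxo32 (29.2), Ldb3 (26.6), Ttn (24.3) and Nebl (8.06). The first 4 overlap widely, with ranges of 194 to 430 for Csrp3 and 134 to 579 for Cryab, and so do Myom1, Fbxo32, Ldb3 and Ttn. With the longest transcript in place of all exons, Cryab moved ahead of Csrp3 (372 against 339) and Ldb3 ahead of Fbxo32. In embryo RFP+ wells Cryab (20.7), Unc45b (9.12), Smyd1 (7.10) and Csrp3 (5.89) led again. In spheroid GFP+ wells Cryab (19.9) and Fbxo32 (14.6) led by a wide margin over Unc45b (3.43), Smyd1 (1.85) and Actn2 (1.26), and Csrp3 had moved from first to last with a median of 0. Reads of the 10 members made up 0.536% to 1.31% of all counts in embryo GFP+ libraries and 0.0132% to 0.0552% in spheroid GFP+ libraries. Ttn supplied a median of 40.6% of the member reads in embryo GFP+ and 10.6% in spheroid GFP+ libraries.

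Several members have paralogues expressed in other tissues, and the balance within each family differed between groups. Values here are means of CPM per kilobase of exon. Actn2 made up 80.6% of the 4 alpha-actinins in embryo GFP+ cells, where the non-muscle form Actn4 made up 12.9%. In embryo RFP+ cells Actn2 made up 2.84% and Actn4 77.3%, and in spheroid GFP+ cells 8.03% and 60.5%. Actn4 itself differed by -0.07 on the log2 scale between embryo GFP+ and RFP+ cells (standard error 0.58, edgeR adjusted p = 0.989), and Actn1 by 0.86 (standard error 1.17, adjusted p = 0.878).

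In the myosin chaperone pair, Unc45b made up 97.7% of the sum in embryo GFP+ cells, 69.1% in embryo RFP+ cells, 47.9% in spheroid GFP+ cells and 9.93% in spheroid RFP+ cells. The general form Unc45a stayed between 3.54 and 6.14 CPM per kb in all 4 groups, and it differed in the embryo by 0.57 on the log2 scale (standard error 1.28, adjusted p = 0.945). Smyd1 made up 80.3% of the 5 measured SMYD genes in embryo GFP+ cells and 4.45% in spheroid GFP+ cells, where Smyd2 made up 50.0%. Fbxo32 and its relative Fbxo25 were near balance in spheroid GFP+ cells, with 51.8% from Fbxo32, against 89.7% in embryo GFP+ and 8.38% in embryo RFP+ cells.

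The muscle LIM genes differed in kind. Csrp2, a LIM protein known from smooth muscle and the embryonic heart, stood level with Csrp3 in embryo GFP+ cells (307 and 304 CPM per kb) and far above it elsewhere. It was the 1 of 11 tested paralogues called in the embryo comparison, at 487 to 881 CPM in GFP+ and 114 to 155 CPM in RFP+ wells, which is 2.37 on the log2 scale (standard error 0.28, edgeR adjusted p = 0.000234). In the spheroids it stood at -0.38 (standard error 0.09, adjusted p = 6.7e-05). Among the actin-binding relatives of Nebl, Lasp1 was at 3.01 CPM per kb in embryo RFP+ cells and 0.240 in embryo GFP+ cells, with a log2 fold change of -3.45 that did not pass (standard error 1.58, adjusted p = 0.301). Neb, the giant nebulin of skeletal muscle, was higher in spheroid GFP+ than RFP+ cells by 2.31 (standard error 0.21, adjusted p = 4.1e-18) and it held 1 read in all embryo GFP+ wells together. Myom2 and Myom3 were listed at 0 in every embryo library. Of 14 paralogues tested in the spheroids, 10 were higher in GFP+ cells, among them Csrp1 (1.91), Lasp1 (0.64) and Actn4 (0.50), and 3 in RFP+ cells (Actn1, Csrp2 and Smyd5), beside 40.1% and 37.8% of all genes tested, while Unc45a was at 0.17 (edgeR adjusted p = 0.241). In the embryo Csrp1 (1.46) and Fbxo25 (-0.91) did not pass (adjusted p = 0.560 and 0.926).

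Among the small heat shock genes Cryab, Cryaa, Hspb1 and Hspb8, the leading one differed between sources. In embryo GFP+ cells Cryab made up 94.6% of their sum, and in spheroid GFP+ cells 19.5%, with Hspb8 at 41.3% and Hspb1 at 39.2%. The sum leaves out Hspb7, Hspb2, Hspb3 and Hspb6. Their means were 141, 77.7, 28.8 and 2.23 CPM in embryo GFP+ and 0.141, 0.674, 0.0296 and 1.60 CPM in spheroid GFP+ cells. Hspb1 and Hspb8, general chaperones of the same family, had log2 fold changes of 3.96 (standard error 0.19, edgeR adjusted p = 1.3e-35) and 2.80 (standard error 0.17, adjusted p = 1.9e-27) between spheroid GFP+ and RFP+ cells. They were lower in embryo than in spheroid GFP+ cells by 3.80 (standard error 0.54, adjusted p = 3.5e-08) and 2.41 (standard error 0.45, adjusted p = 9.2e-06), the direction opposite to that of Cryab.

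**Figure D4:**
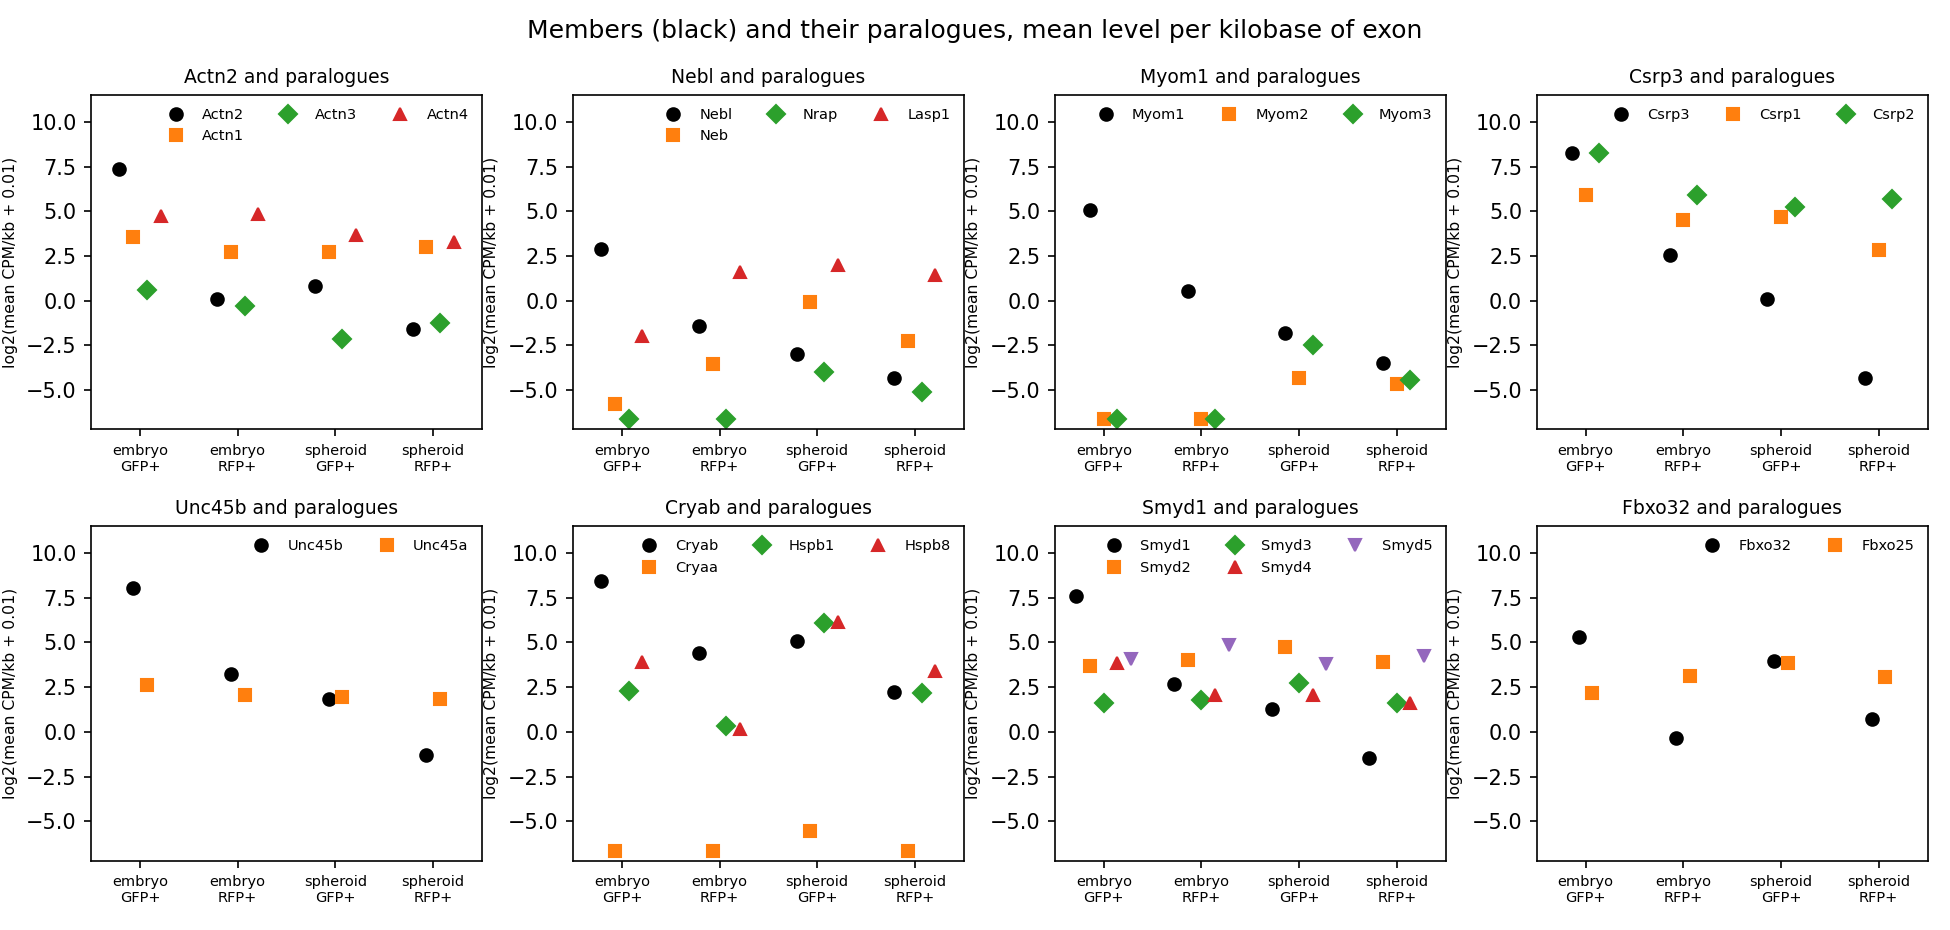
Mean level per kilobase of exon (log2 of CPM per kb plus 0.01, vertical axis) of 8 members (black) and their paralogues (coloured) in the 4 groups. Actn2, Unc45b, Smyd1 and Fbxo32 lead their families in embryo GFP+ cells and fall to or below their paralogues in spheroid RFP+ cells, while Csrp2 equals Csrp3 in embryo GFP+ cells.

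The other genes of the pathway were taken from 5 pathway lists and the list of paralogues, 75 different genes in all, of which the members are no part. These lists, too, were chosen with earlier results of these data known, so their shares of called genes are a description and no independent support. In the embryo comparison 46 were tested by edgeR's quasi-likelihood test. In GFP+ cells 14 were called higher and in RFP+ cells 4, where 3.88% and 6.21% of all genes tested were called in these directions. The median log2 fold change of the 46 was 1.19 and that of all genes tested -0.09. Among 16 tested Z-disc and titin partners, 8 were higher in GFP+ cells and 0 in RFP+ cells. Ankrd1, a titin-binding stress-responsive protein, was at 1597 to 2977 CPM in GFP+ and 16.0 to 131 CPM in RFP+ wells (log2 fold change 5.31, standard error 0.64, adjusted p = 0.000242). Nexn, an actin-binding Z-disc protein, changed by 4.29 (standard error 0.44, adjusted p = 8.8e-05) and Synpo2l, another Z-disc protein, by 4.03 (standard error 1.22, adjusted p = 0.0659). Pdlim5, a PDZ-LIM relative of Ldb3 named after its value was seen, changed by 3.98 (standard error 0.54, adjusted p = 0.000649). Xirp1, at 14 to 262 CPM in GFP+ wells, changed by 5.57 (standard error 1.64, adjusted p = 0.0578).

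Of 5 tested M-band and titin kinase partners, 2 were higher in embryo GFP+ cells, Lrrc39 by 4.73 on the log2 scale (standard error 0.88, adjusted p = 0.00580) and the ubiquitin ligase Trim55 by 4.90 (standard error 1.40, adjusted p = 0.0508). Of 9 tested chaperones, 2 were called in each direction. Hspb7, a small heat shock protein of heart muscle, had the largest value, 8.29 (standard error 1.48, adjusted p = 0.00438), from 29.8 to 279 CPM in GFP+ wells and 2 counts in 1 RFP+ well, so that its fitted value depends on the prior count. Hspb2, which overlaps Cryab, had a value of 3.56 (standard error 1.18, adjusted p = 0.0978). Hsp90aa1 and Hsp90ab1, the general chaperones with which Unc45b works, were lower in GFP+ cells, by -0.87 (standard error 0.20, adjusted p = 0.0156) and -0.48 (standard error 0.15, adjusted p = 0.0760). Of 13 alternative settings, the call of Hsp90ab1 was lost in 11 and that of Hsp90aa1 in 1 (DESeq2).

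Naca, whose muscle isoform binds Smyd1, was lower in embryo GFP+ cells (264 to 687 CPM against 903 to 1327 CPM, log2 fold change -1.26, standard error 0.25, adjusted p = 0.00953), while none of the 4 tested SMYD relatives was called (edgeR adjusted p of 0.762 or more). Among 6 tested ubiquitin ligase components, Asb2, a muscle ligase subunit, rose by 4.95 (standard error 1.05, adjusted p = 0.0112) and Rbx1, a shared ring subunit, fell by 0.99 on the log2 scale (standard error 0.24, adjusted p = 0.0215). Without embryo RFP+ well G11 or without H11, 8 of the pathway genes in place of 14 were called higher in GFP+ cells, and either omission ended the calls of Xirp1, Synpo2l, Trim55, Hspb2, Fhl2 and Sorbs2. Without G11, 2 in place of 4 were called higher in RFP+ cells, and the calls of Hsp90ab1 and Rbx1 ended.

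In the spheroid comparison 40 pathway genes were tested. In GFP+ cells 23 were called higher and in RFP+ cells 12, where 40.1% and 37.8% of all genes tested were called. Beside Hspb1 and Hspb8, given above, the larger values came from Pdlim3 (3.45, standard error 0.26, adjusted p = 2.3e-22) and the intermediate filament gene Des (2.46, standard error 0.22, adjusted p = 3.4e-18) among Z-disc partners, and from the atrophy ligase Trim63 (3.24, standard error 0.28, adjusted p = 8.4e-19) and the autophagy receptor Sqstm1 (2.75, standard error 0.11, adjusted p = 2.2e-40) among titin kinase partners. Nexn (1.43), Fhl2 (0.94) and the autophagy receptor Nbr1 (1.05) were also higher in GFP+ cells, and Obsl1, a relative of obscurin, was lower (-0.91), all with an edgeR adjusted p of 3.5e-06 or less. Bag3, a co-chaperone of the small heat shock proteins, rose by 1.02 (standard error 0.12, adjusted p = 8.4e-13), and Stip1, which links Hsp70 and Hsp90, fell by 0.61 on the log2 scale (standard error 0.04, adjusted p = 6.4e-23). Smyd3 (1.17, standard error 0.10, adjusted p = 1.6e-18), Smyd2 (0.89, standard error 0.09, adjusted p = 1.0e-15) and Smyd4 (0.49, standard error 0.17, adjusted p = 0.00552) were higher in GFP+ cells and Smyd5 (-0.42, standard error 0.08, adjusted p = 9.9e-07) lower. Among the ubiquitin ligase components, Fbxo25 rose by 0.83 (standard error 0.13, adjusted p = 4.1e-08), while the shared subunits Cul1, Skp1a and Rbx1 fell by 0.45, 0.45 and 0.34 on the log2 scale (edgeR adjusted p = 3.6e-15, 3.1e-20 and 6.5e-16). In GFP+ cells 31 of 53 pathway genes tested were higher in the embryo and 15 in the spheroids, beside 19.7% and 48.3% of all genes tested. In RFP+ cells they were 19 and 7 of 43, beside 20.1% and 22.5%.

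Over the 37 spheroid GFP+ wells of at least 100000 counts, the members shared little variation. The median Pearson r over the 45 pairs, on log2 TMM CPM with a prior count of 2, was 0.10 (Spearman's rho 0.11), beside 0.00109 over all pairs of tested genes. These are descriptions over wells that share a plate, differ in depth and have unknown origin. The highest Pearson r were those of Ttn with Csrp3 and of Ttn with Myom1. Ttn and Csrp3 had an r of 0.70 (rho 0.36, r 0.61 without the 2 wells farthest from the Ttn median), Ttn and Myom1 0.56 (rho 0.49, r 0.45), and Myom1 and Csrp3 0.41 (rho 0.28, r 0.23). Only 14 of 38 GFP+ wells held Csrp3 reads, so its r rests on few wells. Nebl had reads in 20 and Myom1 in 26 of the 38 wells. The part of low counts in the low r of the members was not tested. Fbxo32 and Cryab had an r with Ttn of -0.20 and -0.06, and Actn2 one of 0.12 with Ttn and of -0.23 with Unc45b. Unc45b and Ldb3 (r 0.43, rho 0.38, r 0.25 without 2 wells) lay above Myom1 and Csrp3 by r. By rho, Csrp3 with Unc45b (0.44) and with Ldb3 (0.38) lay above Ttn with Csrp3 (0.36). The order of pairs thus differed between the 2 measures. In 46 spheroid RFP+ wells the median r was -0.03.

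**Figure D5:**
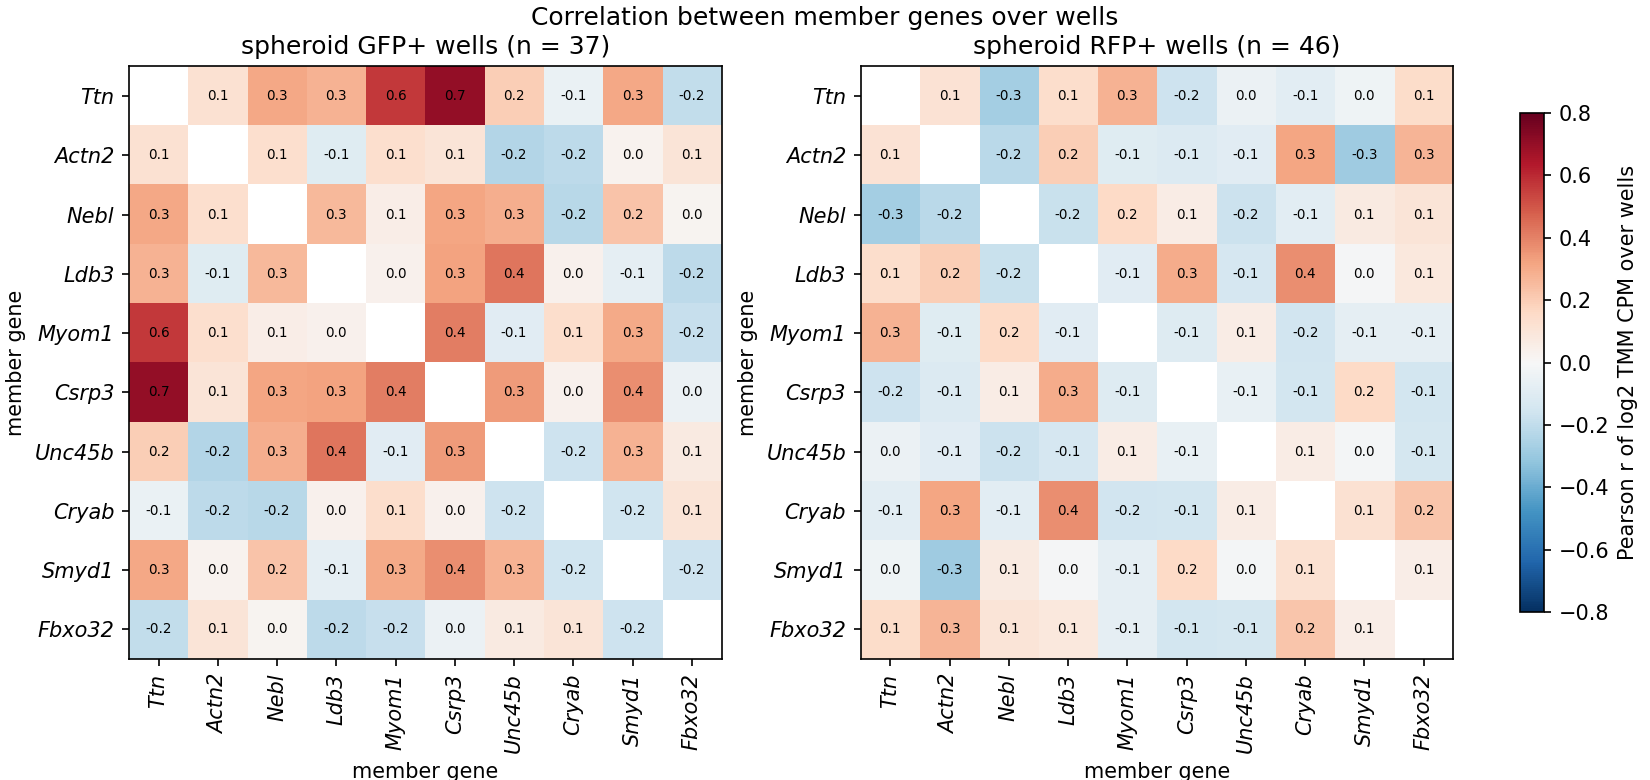
Pearson r between members (both axes list the 10 genes) over 37 spheroid GFP+ wells on the left and 46 spheroid RFP+ wells on the right, on log2 TMM CPM. Ttn has the highest values on the left, with Csrp3 (0.70) and Myom1 (0.56). Unc45b with Ldb3 (0.43) comes before Myom1 with Csrp3 (0.41). Cryab and Fbxo32 lie between -0.20 and 0.14 with Ttn, Csrp3 and Myom1.

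Set beside the summed cardiomyocyte markers over the same 37 wells, Ttn and Csrp3 had an r of 0.82 each (rho 0.55 and 0.52), Myom1 0.58, Smyd1 0.48, and Unc45b, Nebl and Ldb3 between 0.31 and 0.33. Actn2 (0.14), Cryab (-0.03) and Fbxo32 (-0.16) were lower. With log2 total counts, r of the members lay between -0.06 and 0.28. With the pluripotency markers Dppa5a and Pou5f1, r lay between -0.14 and 0.19 and between -0.37 and 0.19.

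Of 9936 non-member genes ranked by r with the mean z-score of the members over these wells, the closest were Actc1 (r 0.76, rho 0.67), the slow troponin I gene Tnni1 (0.74, rho 0.63), the atrial light chain gene Myl7 (0.71, rho 0.44), Myocd, the coactivator of serum response factor (0.64), Nexn (0.63) and the sodium-calcium exchanger gene Slc8a1 (0.61). Acta2, Rbm24, Ppih and Lsm2 followed with r of 0.57 to 0.55. At the other end were Ccdc51 (-0.57), Rybp (-0.54), Tmem177 (-0.54), Selk (-0.53) and Atg2b (-0.53). The mean z-score includes Cryab and Fbxo32, each of which had an r of -0.11 with the mean of the other 9 members.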

How the data were processed

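The authors deposited 1 table of raw counts for 93 libraries. Before that, reads went through Trimmomatic 0.36, which kept bases of quality 35 or more and reads of 36 bases or more, HISAT2 2.0.4 against mm10, and featureCounts 1.5.2 for counts per gene. The gene annotation and strand setting are not given in the sources used here. The cDNA was amplified and tagmented without marking strand or molecules, so counts include PCR duplicates.

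The tests used edgeR 4.0.16 under R 4.3.3 (TMM, filterByExpr with minimum count 10, minimum total 15 and minimum proportion 0.7, quasi-likelihood F-test) in 4 comparisons of 2 groups. Adjusted p-values are Benjamini-Hochberg over all genes tested, and a gene was called under 0.1. Standard errors are the log2 fold change over the square root of F. Differences between embryo and spheroid log2 fold changes were divided by their combined standard error and tested on 7 degrees of freedom. Levels are TMM CPM over all 93 libraries. Scripts were tested on simulated data. Alternatives were DESeq2 1.42.0, RLE size factors, no filter, a threshold of 0.05, summed or left-out libraries and plate row as a covariate. In all, 7 same-row pairs of spheroid RFP+ wells in columns 3 and 4 were near-identical but differed beyond sampling noise and were kept apart.

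The members and gene lists were chosen with earlier results of these data known. Named genes are all members, up to 4 called genes of largest change per pathway list in the embryo and in the spheroid comparison, every tested paralogue, and the 10 highest and 5 lowest genes by correlation with the members. Lengths come from GENCODE M21 and upstream sequences from RefSeq (GRCm38.p6). Of the 24514 symbols, 23726 matched GENCODE M21.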

Additional observations from a re-analysis of the deposited data

Results flagged for a closer look

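For 36 pathway genes tested in both sources, the GFP+ over RFP+ log2 fold change of the embryo was compared with that of the spheroids, and 5 differed at an adjusted p-value under 0.1 (430 of 8182 genes in all). The difference was 3.74 for Pdlim5 (3.98 in the embryo and 0.24 in the spheroids, adjusted p = 0.0262). It was 2.86 for Nexn (4.29 and 1.43, adjusted p = 0.0393), 2.75 for Csrp2 (2.37 and -0.38, adjusted p = 0.0109) and 1.56 for Vcl (1.80 and 0.24, adjusted p = 0.0802). Naca had a difference of -1.03 (-1.26 and -0.23, adjusted p = 0.0971). The members were not tested in this way, because they were chosen on these values. A check for a library far from the others flagged 0 of the 20 member and embryo group combinations. That does not mean that wells lay close together. Not flagged were Actn2, with GFP+ wells B12 and E12 at 2.20 and 2.01 times the mean, and Smyd1, with GFP+ well C12 at 0.0741 times.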

How the results depend on the processing

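Every fitted member value kept its direction in the settings run, and 3 calls of fitted values were lost (Nebl without embryo RFP+ well H11, Cryab of RFP+ cells without F12 or H11). Unc45b had a fitted spheroid value in 6 settings, where Ttn, Cryab and Fbxo32 had one in 7, so its call was not made in every setting. In the spheroids, DESeq2 and no filter each called 10 members in place of 4, and in RFP+ cells between sources 7 and 8 in place of 4, since both tested more of them. The counts of all genes called in these settings are given above. Pathway genes higher in embryo GFP+ cells numbered 23 with DESeq2, 9 at 0.05 and between 8 and 14 with 1 embryo library left out, in place of 14. Those higher in RFP+ cells numbered 1 with DESeq2 and between 2 and 4 with 1 library left out, in place of 4. Without the filter, 42 in place of 23 pathway genes were higher in spheroid GFP+ than RFP+ cells and 25 in place of 15 were higher in spheroid than embryo GFP+ cells. The median correlation between members over spheroid GFP+ wells, 0.10, compares with -0.03339 over RFP+ wells and -0.005149 there with the near-identical wells summed, a setting chosen after seeing the data. Embryo values that were not called and changed sign were those of Sqstm1 (-0.08062 without the filter, and from -0.6084 to 0.3785 with a library left out), Smyd3 (from -0.8891 to 0.1225) and Skp1a (from -0.1723 to 0.2653). Of 13 settings, the embryo call was lost in 11 for Hsp90ab1, 8 for Hspb2, 6 each for Xirp1 and Fhl2, 4 each for Synpo2l and Trim55, 2 each for Rbx1 and Sorbs2 and 1 for Hsp90aa1. No cause of these shifts was tested. No paired analysis was possible because wells carry plate positions and no replicate numbers shared between groups. Counts of 0 limit the spheroid values: each allows up to 1.76 CPM in the median GFP+ and 2.07 CPM in the median RFP+ library. The median embryo GFP+ library had fewer counts (979550), and a 0 there allows up to 3.06 CPM.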
